A study of Homo sapiens with 2 samples.

Results

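The genes examined were 9 transcription factor genes of mesenchymal cells, TWIST1, TWIST2, SNAI1, SNAI2, SNAI3, ZEB1, ZEB2, PRRX1 and PRRX2, out of 20037 protein-coding genes in the RefSeq annotation. They were taken by name, and for each one every DNase I hotspot within the gene span or within 100 kb of either end was collected. This gave 68 of the 51556 Saos-2 hotspots and 65 of the 63388 U2OS hotspots. Saos-2 and U2OS are established human osteosarcoma cell lines, each profiled by DNase-seq in 1 library. The labels name no treatment, genotype or culture condition. DNase I cuts DNA that is not wrapped in nucleosomes, and a hotspot is a stretch with more cuts than its surroundings. The deposited hotspot lists were called in each library separately at a false discovery rate of 0.05 on hg38. With 1 library per line there is no replicate error and no test, so every difference compares these libraries. Intervals cover counting error only.

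TWIST factors are basic helix-loop-helix proteins that bind E-boxes, the sequence CANNTG, as dimers with E proteins. SNAI and ZEB factors are zinc finger repressors that bind the E-box CAGGTG and silence epithelial genes such as CDH1, and PRRX factors are paired-type homeodomain proteins of limb and craniofacial mesenchyme. In bone, TWIST1 restrains osteoblast differentiation by binding RUNX2, and the ZEB genes are targets of the miR-200 microRNAs, which they repress in turn. These roles are background and were not measured here.

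The RefSeq promoter table (GRCh38.p14, the primary assembly of hg38) held 11 windows for 5 of the 9 genes: 7 alternative starts for ZEB1 and 1 start each for ZEB2, TWIST2, PRRX1 and PRRX2. TWIST1, SNAI1, SNAI2 and SNAI3 had no entry, so for them a hotspot within 1 kb of either gene end was counted. As general background, SNAI1 is transcribed toward higher coordinates, and TWIST1, SNAI2 and SNAI3 toward lower ones. Of the 11 windows, 2 were overlapped by a hotspot: the ZEB1 window that is overlapped in both lines and the TWIST2 window that is overlapped in U2OS. Their 250 bases before the start are shown with those of ZEB2, whose start had no hotspot in either line. Capitals mark each CANNTG.
ZEB1, chr10:31318966-31319215, plus strand: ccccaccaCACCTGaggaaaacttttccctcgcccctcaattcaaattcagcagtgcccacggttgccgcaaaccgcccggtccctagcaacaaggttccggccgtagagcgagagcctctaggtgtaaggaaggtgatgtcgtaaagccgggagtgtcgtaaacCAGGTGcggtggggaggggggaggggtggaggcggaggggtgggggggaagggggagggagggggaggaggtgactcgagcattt
TWIST2, chr2:238847835-238848084, plus strand: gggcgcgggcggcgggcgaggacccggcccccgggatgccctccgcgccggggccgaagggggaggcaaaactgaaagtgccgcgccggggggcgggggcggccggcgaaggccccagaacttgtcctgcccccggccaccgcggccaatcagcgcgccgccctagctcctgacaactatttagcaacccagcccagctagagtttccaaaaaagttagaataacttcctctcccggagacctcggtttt
ZEB2, chr2:144520120-144520369, minus strand: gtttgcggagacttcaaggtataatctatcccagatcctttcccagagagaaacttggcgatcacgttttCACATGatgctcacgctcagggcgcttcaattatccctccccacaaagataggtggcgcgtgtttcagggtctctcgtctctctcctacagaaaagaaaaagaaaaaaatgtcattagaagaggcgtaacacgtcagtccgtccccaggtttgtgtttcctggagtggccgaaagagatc

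Motifs were searched on both strands in the 300 bases of each window. The ZEB1 window above held 3 matches to CAGGTG, the E-box of the ZEB and SNAI proteins themselves, 2 of them in the stretch shown. At least 1 match was present in 20.6% of 35114 promoter windows of the same length, and at least 3 in 0.635%. Among the 11 windows of these genes, only this one and the ZEB1 window that begins at 31318167, with 1 match, held CAGGTG. Every other window, of ZEB1 and of the other genes, had none. Within the stretch shown, the U2OS hotspot begins at base 19, so it holds the second of the 2 capitalised E-boxes, 85 bases before the start, and not the first. The TWIST2 window had no CANNTG, which 68.7% of windows had, and 4 matches to the GC box GGGCGG. At least 1 match to GGGCGG was present in 45% of windows, and at least 3 in 15.8%. The ZEB2 window had 1 CANNTG, which was not CAGGTG, and no GC box. None of the 11 windows held the AP-1 motif TGANTCA (7.71% of all windows), the TATA box TATAAA (11.5%) or the homeodomain motif TAATTA (4.84%). Matches to CAGGTG are also matches to CANNTG. The other motifs were rare: TGTGGT, bound by RUNX factors (13.1% of all windows), occurred in 2 ZEB1 windows, and GGAATG, bound by TEAD factors (14.0%), in 1. The E-box CATCTG (14.7%), also a form of CANNTG, occurred in 1 ZEB1 window. These are letter matches in fixed windows and say nothing of binding.

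U2OS had a hotspot at a start or gene end of 6 genes and Saos-2 of 3. In all, U2OS had 65 hotspots covering 16361 bp and Saos-2 had 68 covering 16202 bp. The U2OS list is the longer, and with lists of equal length U2OS had a start or end hotspot at 4 genes and Saos-2 at 3, with 50 and 68 hotspots in all. TWIST2, SNAI2 and SNAI3 had such a hotspot in U2OS only. ZEB1 and PRRX1 had an overlapping one in both lines, SNAI1 had one in each line at opposite ends, and TWIST1, ZEB2 and PRRX2 had none in either line. By the direction given above, the SNAI1 hotspot of Saos-2 was at the start and that of U2OS past the far end. Across the 15843 protein-coding genes with a table start, 39.3% had no hotspot within 1 kb of a start, 9.54% one in U2OS alone, 4.78% one in Saos-2 alone and 46.3% in both. By the rule of either gene end, over all 20037 genes, these shares were 41.7%, 10.5%, 5.07% and 42.7%. With 9 genes, no share of theirs can be set apart from these.

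**Figure D1:**
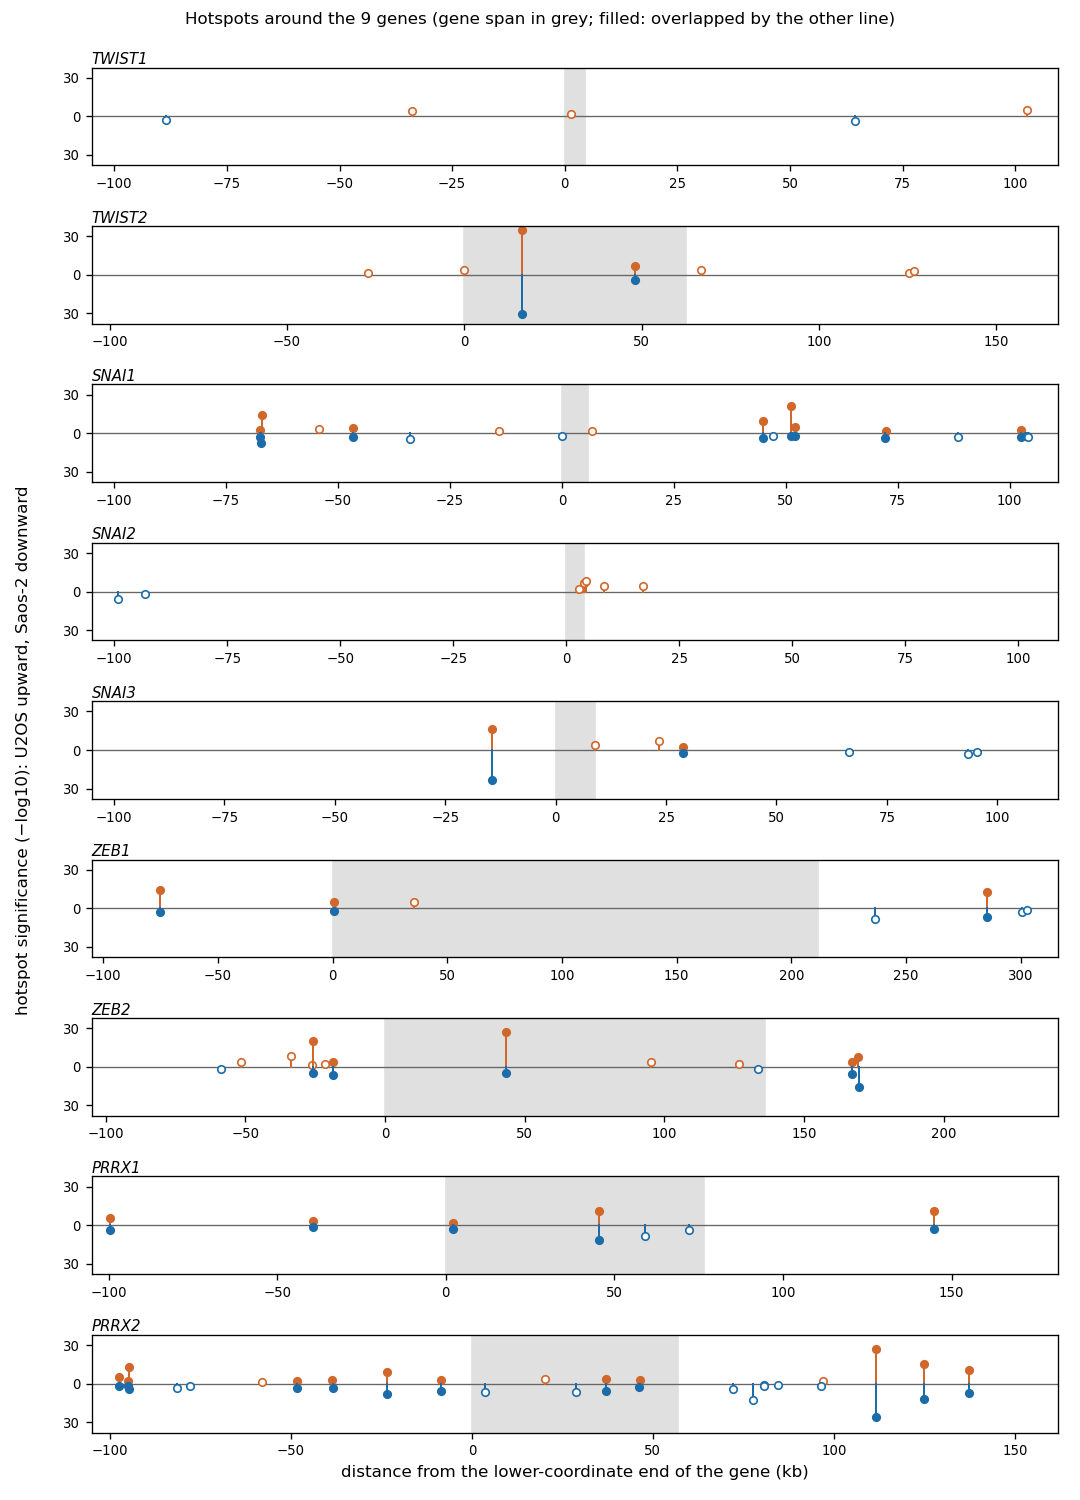
Position and significance of every hotspot around each of the 9 genes; the horizontal axis is the distance in kb from the lower-coordinate end of the gene, the vertical axis is the authors' −log10 significance with U2OS (orange) upward and Saos-2 (blue) downward, and filled circles are overlapped by the other line. TWIST1 and SNAI2 have open circles only, the tallest lines are the shared site inside TWIST2, at 34.5 in U2OS and 30.8 in Saos-2, and all 5 U2OS sites of SNAI2 lie in or above the gene.

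Among the TWIST genes, the accessible sites of TWIST1 were few and did not coincide. TWIST1 (gene 7291, chromosome 7, 19113047 to 19117636) had 2 hotspots in Saos-2 against 3 in U2OS, and none overlapped. The authors' significance, a −log10 value that ranks hotspots within a list, was 2.45 and 3.85 in Saos-2 and 2.25, 4.36 and 4.87 in U2OS. The highest Saos-2 site, at 19177270 to 19177700, lay 59.6 kb above the gene. The highest U2OS site, at 19215511 to 19215751, lay 97.9 kb above it. The only hotspot inside the gene span belonged to U2OS, at 19114357 to 19114480, 1.31 kb from the lower-coordinate end. At percentile 17.3 of the U2OS list, it was among the weaker hotspots called.

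TWIST2, the close relative of TWIST1 that is also called Dermo-1, carried the most significant site of all 9 regions, and both lines had it. The gene (gene 117581, chromosome 2, 238848085 to 238910534) had 2 hotspots in Saos-2, both overlapped, and 7 in U2OS, 2 of them overlapped. The shared site lies 16.1 kb inside the gene, at 238864206 to 238864607 in Saos-2 and 238864198 to 238864597 in U2OS. Its significance was 30.8 in Saos-2 against 34.5 in U2OS, at percentiles 98.7 and 98.2 of the respective lists. A second shared site, 47.9 kb inside the gene, had a significance of 4.26 in Saos-2 against 6.65 in U2OS. The gene table gives spans and not exons, so a site inside a gene cannot be called exonic or intronic here.

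At the TWIST2 start, U2OS had a hotspot at 238847913 to 238848108 with a significance of 3.77, at percentile 41.4 of its list, and Saos-2 had none. It spans bases 79 to 250 of the TWIST2 sequence printed above and 24 bases past the start. The remaining U2OS sites lay outside the gene, 1 at 27.0 kb upstream and 3 between 4.15 and 64.1 kb downstream. The highest of these, 4.15 kb downstream, had a significance of 3.82, and none was overlapped. The TWIST2 difference in number therefore came from U2OS sites below the middle of their list.

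The SNAI genes showed the clearest contrast between the lines, at SNAI2, which encodes the repressor SLUG. SNAI2 (gene 6591, chromosome 8, 48917598 to 48921429) had 2 hotspots in Saos-2 against 5 in U2OS. The 5 U2OS hotspots all lay in the gene or within 20 kb of it, and Saos-2 had 0 in the same span. That span was not fixed in advance, and no share of all genes was computed for it. Within 10 kb, 10.9% of all protein-coding genes had a hotspot in U2OS alone. In U2OS a pair of neighbouring sites covered the upper-coordinate end, at 48921370 to 48921677 with a significance of 7.04 and at 48921683 to 48922130 with 7.91. These stood at percentiles 66.2 and 70.2 of the U2OS list. A weaker hotspot inside the gene had a significance of 2.005. Further sites followed 4.23 kb and 13.0 kb above the gene, with significances of 4.56 and 4.49. The 2 Saos-2 hotspots lay 93.2 and 99.0 kb below the gene, with significances of 2.22 and 5.39, and neither overlapped a U2OS site.

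SNAI2 was also the 1 gene of the 9 whose covered bases passed a 2-fold difference, with 298 bp in Saos-2 against 1511 bp in U2OS. Their log2 ratio (U2OS over Saos-2), with 250 bp added to both and the median of all gene regions (0.28) subtracted, was 1.40, at percentile 94.4 of 19631 protein-coding gene regions. Of those regions, 11.0% passed 2-fold with U2OS higher and 7.18% with Saos-2 higher. The counting interval of the SNAI2 ratio, from its 2 Saos-2 and 5 U2OS hotspots, ran from -0.96 to 3.77 and included 0. In the more significant 50% of each list the SNAI2 ratio was 0.83, short of 2-fold. Within the gene span alone Saos-2 had no hotspot, so no fold is given there. SNAI2 lies on chromosome 8, where hotspots numbered 2077 in Saos-2 against 3415 in U2OS, a ratio of 1.64 against 1.23 over all chromosomes. The part of this chromosome-wide difference in the SNAI2 values was not tested.

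SNAI2 and TWIST1 were the 2 genes with no overlapping hotspot in their regions, while the other 7 had at least 1 (2 to 12). Among 17430 protein-coding gene regions with at least 2 hotspots in each line, 0.918% had no overlap. Most of those regions hold many more hotspots. In regions of a like size, with 2 hotspots in Saos-2 and 3 to 5 in U2OS, a limit chosen after the values were seen, the share without overlap was 8.3% of 578.

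SNAI1, the gene of Snail and a repressor of CDH1, had no hotspot inside its span in either line. Its region (gene 6615, chromosome 20, 49982980 to 49988886) held 15 hotspots in Saos-2 against 11 in U2OS, 8 of them overlapped in each, and also contains 5 other protein-coding genes. In Saos-2 a hotspot at 49982866 to 49982971 ended 9 bp below the lower-coordinate end, with a significance of 2.15. In U2OS the only close hotspot lay 663 bp above the other end, at 49989549 to 49989693, with a significance of 1.96. Both were weak, at percentiles 17.9 and 11.5 of their lists, and they do not mark the same end. By the direction of transcription given above, the Saos-2 hotspot lies at the start and the U2OS hotspot past the far end.

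The most significant SNAI1 site differed between the lines. In Saos-2 it was the hotspot at the start of SPATA2, at 49915683 to 49916085, with 7.67 in Saos-2 against 14.1 in U2OS. In U2OS it was a distal site 45 kb above SNAI1, at 50033884 to 50034311, with a significance of 21.4. The overlapping Saos-2 hotspot had 1.94, so the U2OS value was 11.0 times as high, the widest ratio of the 37 overlapping pairs in the 9 regions. Sites next to it, 39.0 and 46.0 kb above the gene, were also higher in U2OS, at 9.34 against 4.04 and 5.19 against 2.14. Of the sites without overlap, the highest were 4.65 in Saos-2, inside RNF114, and 2.95 in U2OS.

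SNAI3, the least studied of the SNAI genes, resembled SNAI2 in having an end hotspot in U2OS only, at lower significance. SNAI3 (gene 333929, chromosome 16, 88677688 to 88686507) lies among 7 other protein-coding genes, and its region held 5 hotspots in Saos-2 against 4 in U2OS, 2 overlapped in each. The U2OS hotspot at 88686431 to 88686631, over the upper-coordinate end, had a significance of 3.50. The strongest site in both lines lay within 1 kb of a start or end of the neighbouring gene MVD, with a significance of 22.96 in Saos-2 against 16.6 in U2OS. A U2OS site without overlap, inside RNF166 and 14.5 kb above SNAI3, had a significance of 7.26. The 3 Saos-2 sites without overlap lay inside PIEZO1, with a highest value of 3.02.

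ZEB1 had a hotspot within 1 kb of a start in both lines. ZEB1 (gene 6935, chromosome 10, 31318417 to 31529804) spans 211388 bp, yet its region held 6 hotspots in Saos-2 against 4 in U2OS, 3 overlapped in each. The start hotspot extended from 31318990 to 31319174 in Saos-2 and from 31318984 to 31319237 in U2OS, over the sequence printed above. In Saos-2 it ended 42 bp before the start, and in U2OS it covered the start. Its significance was 2.26 in Saos-2 against 4.63 in U2OS, at percentiles 20.5 and 50.3. It lay in 1 of the 7 start windows, and the other 6 windows were not overlapped. The remainder of the gene held 1 site, in U2OS at 31353673 to 31353882 with a significance of 5.31, and none in Saos-2.

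The distal ZEB1 sites that overlapped were higher in U2OS. The site 75.2 kb upstream had a significance of 3.13 in Saos-2 against 14.1 in U2OS. The site 73.7 kb downstream, at the start of LOC124906892, had 6.55 and 12.4. The strongest Saos-2 site of the region, 24.7 kb downstream at 31554494 to 31554896, had a significance of 8.21 and was not overlapped. All 3 overlapping ZEB1 pairs thus had the higher value in U2OS, which was so for 62.6% of the 30625 pairs in the whole lists.

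ZEB2 had no hotspot within 1 kb of its start in either line, but shared distal sites on both sides and inside the gene. ZEB2 (gene 9839, chromosome 2, 144384081 to 144520119, minus strand) had 7 hotspots in Saos-2 against 11 in U2OS, 5 overlapped in each. The nearest to the start was a Saos-2 hotspot 2.39 kb inside the gene, with a significance of 2.09 and no overlap. The shared site inside the gene, at 144427030 to 144427392 in Saos-2 and 144426951 to 144427567 in U2OS, had a significance of 5.02 in Saos-2 against 27.3 in U2OS. The shared site 25.8 kb downstream had 4.87 in Saos-2 against 20.1 in U2OS.

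Upstream of ZEB2 the order of the lines was the opposite. The site 33.2 kb upstream, at 144553353 to 144553797 in Saos-2, had a significance of 15.8 in Saos-2 against 7.64 in U2OS, and the site 30.9 kb upstream had 5.27 and 3.47. The shared site 18.4 kb downstream was also higher in Saos-2, at 6.11 against 3.92. Of the U2OS sites without overlap, 4 lay downstream and 2 inside the gene, the highest at 144350098 to 144350517 with a significance of 8.52. The order of significance among the 5 shared ZEB2 sites thus differed between the lines.

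PRRX1, a homeobox gene of limb bud and mesenchymal progenitor cells, was the only gene whose U2OS hotspots all overlapped. PRRX1 (gene 5396, chromosome 1, 170662768 to 170739421) had 7 hotspots in Saos-2 against 5 in U2OS, 5 overlapped in each. The promoter-proximal hotspot lay about 0.78 kb past the table start, at 170664914 to 170665112 in Saos-2 and 170664911 to 170665042 in U2OS, with significances of 2.71 and 2.02. It did not reach the 300-base window around that start. The shared site inside the gene, 43.9 kb from the start, had nearly the same value in both lines, at 11.5 in Saos-2 against 11.2 in U2OS. The site 68.2 kb downstream had 2.60 in Saos-2 against 11.4 in U2OS.

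Inside PRRX1, Saos-2 had 2 further sites without overlap. The higher, at 170721700 to 170721984, had a significance of 8.77, at percentile 79.4 of the Saos-2 list, and the other had 3.48. Covered bases in the region were 1688 bp in Saos-2 against 1305 bp in U2OS, a centred log2 ratio of -0.60. With a flank of 50 kb the ratio was -1.07, past 2-fold, and within the gene span alone -1.20. In the more significant 50% of each list it was -0.07.

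PRRX2 had the most hotspots of the 9 regions in both lines and none within 1 kb of its start. PRRX2 (gene 51450, chromosome 9, 129665647 to 129722674) lies among 6 other protein-coding genes, and its region held 22 hotspots in Saos-2 against 15 in U2OS, 12 overlapped in each. The nearest site was a Saos-2 hotspot 3.56 kb inside the gene, at 129669209 to 129669541, with a significance of 6.28 and no overlap. A further Saos-2 site 28.6 kb inside the gene had 6.21. The U2OS site inside the gene without overlap, 20025 bp from the start, had 3.45.

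The strongest PRRX2 site was shared and lay far downstream. The site at 129777059 to 129777619 in Saos-2, 54.4 kb past the gene, had a significance of 25.8 in Saos-2 against 27.2 in U2OS. A further shared site, 67.7 kb past the gene, had 11.95 and 15.3. Between 15 and 30 kb past the gene, a window chosen after the values were seen, Saos-2 had 5 hotspots and U2OS none, 4 of the 5 inside PTGES, the gene of prostaglandin E synthase. The highest of these 5, at 129743035 to 129743407, had a significance of 12.7, the second highest value of Saos-2 in the region. Near 40 kb past the gene each line had 1 weak hotspot, and they did not overlap. The centred log2 ratio of covered bases was -0.87 in the region, with 5684 bp in Saos-2 against 3710 bp in U2OS. With a flank of 50 kb it was -1.35, past 2-fold.

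**Figure D2:**
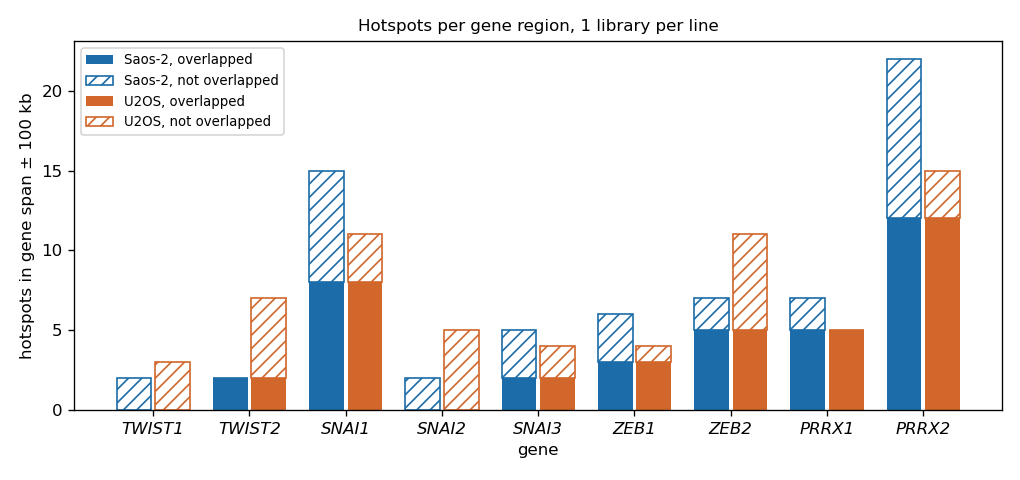
Number of hotspots within each gene span and 100 kb on both sides (vertical axis), by gene and line, 1 library per line; solid parts of the bars are hotspots overlapped by the other line and hatched parts are not. PRRX2 has the tallest bars, 22 in Saos-2 against 15 in U2OS, and TWIST1 and SNAI2 have no solid part.

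Over the 9 regions, 37 of the 68 Saos-2 hotspots were overlapped by at least 1 bp (54.4%, 95% Wilson interval 42.7 to 65.7%), against 58.1% of the whole Saos-2 list. Of the 65 U2OS hotspots, 37 were overlapped (56.9%, 44.8 to 68.2%), against 46.9% of the whole U2OS list. Both list shares fall inside the intervals of the regions. Saos-2 had more hotspots than U2OS at 5 genes (SNAI1, SNAI3, ZEB1, PRRX1 and PRRX2), and U2OS had more at 4 (TWIST1, TWIST2, SNAI2 and ZEB2). SNAI1, SNAI3 and PRRX2, which share their regions with 5 to 7 other protein-coding genes, held 42 of the 68 Saos-2 and 30 of the 65 U2OS hotspots. In those 3 regions 73.3% of U2OS hotspots were overlapped (interval 55.6 to 85.8%), and in the regions of the other 6 genes 42.9% were (28.0 to 59.1%). For Saos-2 these shares were 52.4% (37.7 to 66.6%) and 57.7% (38.9 to 74.5%). This split of the genes was not fixed in advance. PRRX2 alone gave 15 of the 30 U2OS hotspots in the 3 regions and 12 of the 22 that were overlapped. The intervals take hotspots of the same region as independent, so no difference between the 2 sets of regions is drawn from them.

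Sites at the genes' own starts or ends were then compared with distal sites. At starts or ends, 2 of 3 Saos-2 and 2 of 8 U2OS hotspots were overlapped, the ones at ZEB1 and PRRX1, against 80.5% and 70.6% of hotspots within 1 kb of any protein-coding start, or of either end where the table has no start, in the whole lists. Of the distal sites, 35 of 65 in Saos-2 (53.8%, interval 41.9 to 65.4%) and 35 of 57 in U2OS (61.4%, 48.4 to 72.9%) were. For 2 of 8 the interval runs from 7.15 to 59.1%, below 70.6%, but it takes the sites as independent, so no difference is drawn from it. Of the 8 U2OS sites, 3 belong to SNAI2 and are not independent of each other, and 1 lies past the far end of SNAI1 and not at its start.

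Part of the distal sites belong to neighbouring genes. Distal hotspots near such a position of another protein-coding gene numbered 9 in Saos-2, all overlapped, and 10 in U2OS, 9 of them overlapped. Among the distal sites at no such position, 26 of 56 in Saos-2 (46.4%, interval 34.0 to 59.3%) and 26 of 47 in U2OS (55.3%, 41.2 to 68.6%) were overlapped. In the whole lists 52.0% of Saos-2 and 41.2% of U2OS hotspots at no such position were. The U2OS interval began at the share of the list. It takes hotspots of the same region as independent, so no difference from the list is drawn from it. Overlapped hotspots in the 9 regions had a median significance of 4.04 in Saos-2 against 5.95 in U2OS, and those without overlap 2.45 and 3.48.

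The significance of the 37 overlapping pairs was higher in U2OS for 23 (62.2%) and in Saos-2 for 14. U2OS had at least 2 times the Saos-2 value in 11 pairs, against 30.8% of the pairs in the whole lists, and Saos-2 at least 2 times the U2OS value in 4, against 13.1%. The 11 and 4 of 37 are near those shares. The 4 pairs favouring Saos-2 were 1 at SNAI1, 1 at ZEB2 and 2 at PRRX2. A deeper library gives higher values at the same site, and the depth of both libraries is unknown, so a ratio between lines is read here only against the other pairs.

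**Figure D3:**
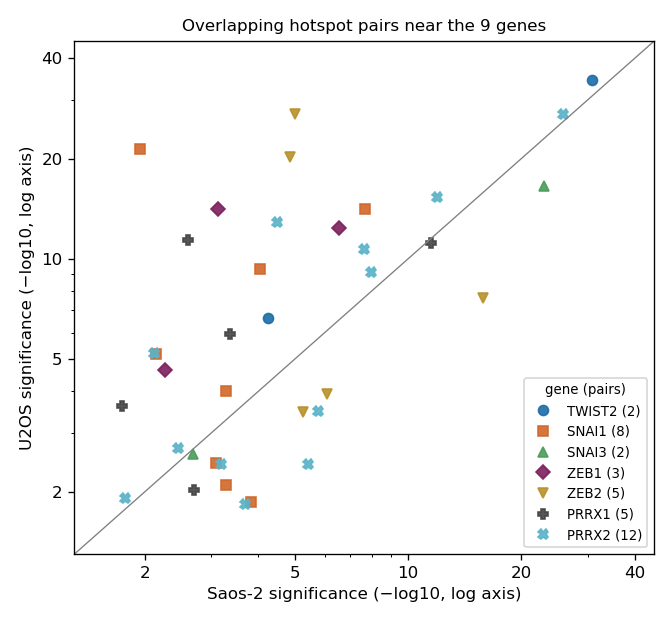
Significance (−log10, log axes) of the 37 pairs of overlapping hotspots, Saos-2 horizontally and U2OS vertically, with a symbol for each gene and the line of equal values. The SNAI1 pair at 1.94 in Saos-2 against 21.4 in U2OS stands farthest above the line, and the TWIST2 pair at 30.8 and 34.5 lies at the upper right.

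The centred log2 ratio was above 0 for 3 genes, SNAI2 (1.40), TWIST2 (0.64) and ZEB2 (0.35), and below 0 for 6, from -0.18 at TWIST1 to -0.87 at PRRX2, with a median of -0.28. These directions were not stable for most of the genes. In the more significant 50% of each list 6 of the 9 changed sign, to 0.73 at TWIST1, 0.65 at SNAI1, 0.13 at SNAI3, 0.38 at ZEB1, -0.20 at TWIST2 and -0.16 at ZEB2. With a flank of 50 kb 3 changed sign, and within the gene spans alone 4 did. SNAI2, PRRX1 and PRRX2 had 1 sign in all 7 settings run beside the main one. Equal list lengths, merging and the addition of 100 or 500 bp turned the sign of none of the 9 genes, so these settings do not separate them. For SNAI2, Saos-2 had no hotspot with a flank of 50 kb or in the gene span, and its sign there follows from that absence. In the main setting only SNAI2 passed 2-fold, and 8 genes stayed within it. The counting interval of each of the 9 ratios included 0. TWIST1 moved with the window: both of its Saos-2 hotspots lay outside a flank of 50 kb, so no fold is given there. Neither of them is in the more significant 50% of the Saos-2 list, so the 0.73 of TWIST1 depends on the bases added.

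**Figure D4:**
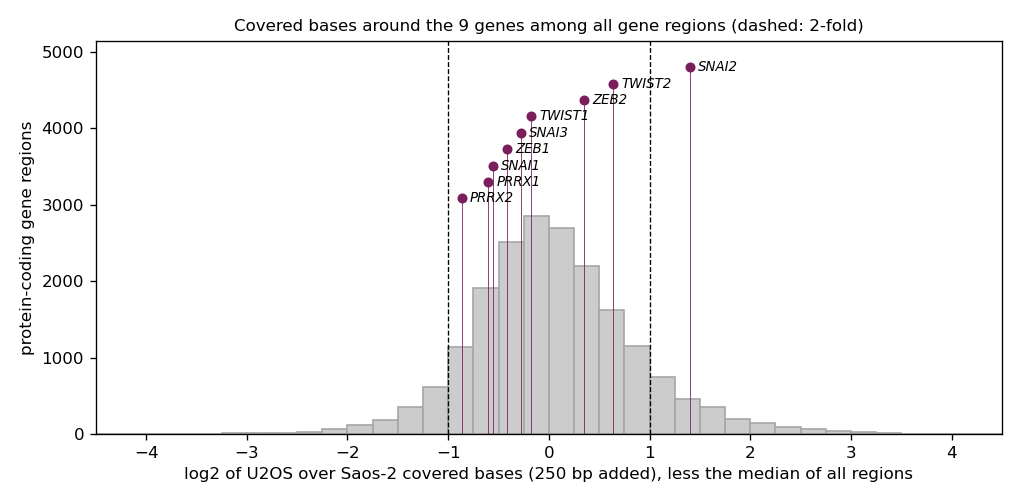
Distribution over protein-coding gene regions (grey bars, number of regions) of the log2 ratio of covered bases (U2OS over Saos-2), with 250 bp added and the median subtracted, and the values of the 9 genes as labelled points whose height only separates them. Dashed lines mark a 2-fold difference, and SNAI2 at 1.40 is the only gene beyond one.

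Other genes of the same pathway were taken from lists and compared by hotspots within 10 kb of the gene. Over all protein-coding genes, 14.4% had no hotspot there, 10.9% one in U2OS alone, 4.23% one in Saos-2 alone and 70.5% in both. Of the genes with one in either line, 11.4% passed 2-fold with U2OS higher and 8.84% with Saos-2 higher after centring. Of the bHLH partners and inhibitors of TWIST factors, 8 of 9 had a hotspot in both lines and 1, HAND2, in U2OS only. None passed 2-fold toward U2OS and 2 toward Saos-2, with a median centred log2 ratio of -0.17. TCF4, an E protein, had 11 hotspots covering 2676 bp in Saos-2 and 6 covering 1164 bp in U2OS. ID3, an inhibitor that binds E proteins, had 1144 bp against 223 bp. ID1, a relative of ID3, had 1659 bp in Saos-2 against 2892 bp in U2OS, and the E protein gene TCF3 had 1531 bp and 1135 bp.

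Of 20 epithelial genes that SNAI and ZEB factors repress, 4 had no hotspot, 2 had one in U2OS alone, 2 in Saos-2 alone and 12 in both. The list includes microRNA genes, while the shares over all genes cover protein-coding genes only. MIR200A, MIR200B and MIR429, all without a hotspot, are neighbours, and MIR200C and MIR141 share the same hotspots, so these entries are not independent. The median centred log2 ratio was 0.21 over the 16 with a hotspot, and 1 passed 2-fold toward U2OS and 2 toward Saos-2. The former was CDH1, the gene of E-cadherin and the classical target of SNAI1, SNAI2 and ZEB1, with 3 hotspots covering 695 bp in Saos-2 and 11 covering 2536 bp in U2OS. The latter were EPCAM, with 243 bp in Saos-2, and OCLN, the gene of the tight junction protein occludin, with 651 bp. For both the U2OS list had no hotspot, so no fold is given. EPCAM had 1 hotspot in Saos-2, and its log2 ratio was -0.98 before the median was subtracted and -1.16 after. Its call therefore depends on the centring and on the bases added. GRHL2, an epithelial transcription factor gene, had 1229 bp and 1827 bp, CLDN4 had 544 bp and 1151 bp, and GRHL1 had 616 bp and 1131 bp.

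The microRNAs of the miR-200 family, which target ZEB1 and ZEB2, come from 2 clusters and fall into 2 groups by seed, shown because their seeds decide which sites they recognise. The seed, bases 2 to 8, is in capitals, and the sequences are those of RefSeq.
hsa-miR-200b-3p: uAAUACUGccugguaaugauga
hsa-miR-200c-3p: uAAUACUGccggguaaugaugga
hsa-miR-429: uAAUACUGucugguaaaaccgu
hsa-miR-200a-3p: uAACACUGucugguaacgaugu
hsa-miR-141-3p: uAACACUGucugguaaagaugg
The cluster of MIR200B, MIR200A and MIR429 on chromosome 1 had no hotspot within 10 kb in either line. The cluster of MIR200C and MIR141 on chromosome 12 had 1 hotspot in Saos-2, with a significance of 12.7, and 2 in U2OS, the higher at 27.2, and 1 was shared. Both clusters encode a member of each seed group. MIR205, which also targets the ZEB genes, had 1 hotspot in U2OS, with a significance of 5.88, and none in Saos-2. These microRNA genes were singled out after their values were seen.

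Of 18 genes of mesenchymal matrix and cytoskeleton, 16 had a hotspot in both lines, 1, LOX, in U2OS only and 1, POSTN, in neither. The median centred log2 ratio was -0.28, and 2 genes passed 2-fold in each direction. PDGFRB, a growth factor receptor gene of mesenchymal cells, had 3 hotspots covering 1208 bp in Saos-2 and 14 covering 3222 bp in U2OS. COL1A1, the gene of the main collagen chain of bone, had 601 bp and 2280 bp. CDH2, the gene of N-cadherin, had 1289 bp in Saos-2 against 551 bp in U2OS, and CDH11, a cadherin gene of osteoblasts, had 1348 bp and 963 bp. Toward Saos-2 the 2 genes were CDH2 and ACTA2, which encodes smooth muscle actin, with 1069 bp and 206 bp.

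Of 14 cofactors and regulators of SNAI and ZEB proteins, FBXL14 had a hotspot in U2OS alone, HDAC2 in Saos-2 alone and the other 12 in both. The median centred log2 ratio was -0.50, with 1 gene past 2-fold toward U2OS and 3 toward Saos-2. CTBP2, a corepressor that ZEB proteins recruit, had 713 bp in Saos-2 against 2289 bp in U2OS. GSK3B, the kinase that marks Snail for degradation, had 2460 bp and 1625 bp. USP9X, a deubiquitinase gene, had 2201 bp and 1340 bp, and FBXW7, a ubiquitin ligase gene, had 2068 bp and 1401 bp. Toward Saos-2 the 3 genes were HDAC2, with 863 bp in Saos-2 and none in U2OS, EZH2, with 646 bp and 222 bp, and AJUBA, with 619 bp and 203 bp.

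As a check of the labelled cell type, 6 of 6 osteoblast genes had a hotspot within 10 kb in both lines. So did 3 of 3 blood cell genes, so a hotspot nearby does not by itself separate lineages. Of 4 epithelial marker genes, KRT18 had a hotspot in U2OS alone, EPCAM in Saos-2 alone and the other 2 in both, with 8 hotspots summed in Saos-2 against 31 in U2OS. KRT8 and KRT18 adjoin and share part of these, so the sums count some hotspots again and the 2 genes are not independent. After centring, 3 of the 4 passed 2-fold toward U2OS and 1, EPCAM, toward Saos-2. Over all protein-coding genes with a hotspot within 10 kb, these shares were 11.4% and 8.84%.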

How the data were processed

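DNase-seq of Saos-2 and U2OS cells was analysed from 1 hotspot list per library, grouped by the cell line in the labels. Per the labels' protocols, nuclei were digested with limiting DNase I for 3 min at 37 °C and libraries had 8 to 10 PCR cycles. Trimmomatic 0.38 and BWA 0.7.15 appear in the submitters' processing notes. The hotspot caller, its filters and the read depth are not given in the sources used here. The value of each hotspot in the deposited lists was taken as a −log10 significance, since the lowest was 1.30, the −log10 of 0.05, and the highest 100. The deposited score is a whole number within 0.5 of 10 times that value and was not used further.

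Hotspots were compared by an overlap of at least 1 bp with Python 3.11.15, numpy 2.4.6, pandas 2.3.3 and scipy 1.17.1, and the routines were tested on simulated data. Gene spans and starts came from RefSeq tables. The 9 genes and the lists were chosen with earlier results of these data known. Named were the 9 genes, their most significant sites of each kind, and up to 4 genes per list with the most covered bases. Genes past 2-fold, and some with hotspots in 1 line or neither, were also named, after their values were seen. Alternatives were the overlap, list length, threshold, merging, flank, promoter window and added bases. No genome sequence was used, so hotspots outside the promoter windows were not searched for motifs.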

Additional observations from a re-analysis of the deposited data

How the results depend on the processing

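No paired analysis was possible because each line had 1 library, and no replicate could be left out. SNAI2 was the only gene past 2-fold, so only its 7 recomputed ratios could reverse such a call. None changed sign, but the ratio fell short of 2-fold in the top 50% of each list (0.83) and in the gene span alone (0.74). In the top 50% of each list 6 of the 9 ratios of covered bases changed sign. The shares overlapped stayed inside their Wilson intervals in every setting run: Saos-2 ranged from 45.6 to 61.5% and U2OS from 47.1 to 64.0%. Counts changed by construction with fewer hotspots or shorter regions. In the top 50% of each list, Saos-2 had 25 hotspots (25 distal) and U2OS 28 (25 distal), 0 genes had a start or end hotspot in Saos-2 and 2 in U2OS, and 0 genes passed 2-fold with U2OS higher. With a flank of 50 kb, Saos-2 had 38 hotspots (35 distal) and U2OS 37 distal ones, and 2 genes passed 2-fold in each direction: SNAI2 and TWIST1 toward U2OS, both with no Saos-2 hotspot left, PRRX1 and PRRX2 toward Saos-2. In the gene spans alone, Saos-2 had 13 hotspots (11 distal) and U2OS 17 (11 distal), with 0 genes past 2-fold toward U2OS and 1, PRRX1, toward Saos-2. SNAI2 ranged from 0.74 in the gene span alone to 2.56 with 50 kb. In both settings Saos-2 has no hotspot, so these values depend on the bases added. The same holds for TWIST1 with 50 kb and in the top 50% of each list. The ratio of SNAI1 moved from -0.56 to 0.65 in the top 50% of each list, beyond its counting interval. Read depth is unknown and limits every comparison of level between the lines.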
